A study of Homo sapiens with 6 samples.

Results

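The transcripts described here are those of 10 genes of transforming growth factor beta (TGF-beta) signalling, picked by gene symbol from the 38557 genes listed for each library. They were the ligands TGFB1, TGFB2 and TGFB3, the receptors TGFBR1 and TGFBR2, the latent binding proteins LTBP1 and LTBP2, the target TGFBI, and the feedback genes SMAD7 and SKIL. All 10 were found in every file and all 10 passed the filter on low counts. RNA had been sequenced from heart muscle cells differentiated from the human stem cell line WTC11, a widely used induced pluripotent line that the labels call wild type (WT), so every library shares 1 genetic background. The cells of 3 libraries had been kept in RPMI plus B27, where B27 is a serum-free supplement, and those of the other 3 in DMEM plus fatty acids. No treatment other than the medium is named in the labels, and neither the age of the cells nor the time in the medium is given in the sources used here. The titles call the libraries of a medium biological replicates 1 to 3, without saying what separates them, so that p-values measure the spread between these libraries.

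TGF-beta ligands are made as precursors whose propeptide stays bound to the mature growth factor and keeps it latent. Latent TGF-beta binding proteins tie this complex to the extracellular matrix, from which integrins and proteases release the active ligand. Active ligand brings together the type II and the type I receptor, a pair of serine/threonine kinases that phosphorylate SMAD2 and SMAD3, and these enter the nucleus with SMAD4 and turn on matrix genes together with their own inhibitors. In the heart the pathway is best known for its part in fibroblast activation and matrix deposition.

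The libraries held 23232324 to 31035389 gene counts. Transcript levels are given as CPM, the counts of a gene relative to the library total, scaled by trimmed mean of M values (TMM), and changes as log2 fold changes (DMEM plus fatty acids relative to RPMI plus B27) with their standard error (SE), from edgeR's quasi-likelihood test with Benjamini-Hochberg adjustment over all 16107 tested genes and a threshold of 0.05. This test gives no SE, so the SE was derived as the absolute log2 fold change divided by the square root of the test's F statistic. Cardiomyocyte markers were abundant in every library. The summed level of 12 of them was 30603 to 37325 CPM in RPMI plus B27 and 24581 to 34376 CPM in DMEM plus fatty acids, and of 10 endothelial markers PECAM1, CDH5 and VWF were at most 0.41 CPM in any library while KDR had 27.5 to 463 CPM. Libraries of the same replicate number deviated together, and values from a fit blocked on that number (the replicate block) are printed for the genes named here where they change the call.

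Of the 10 genes, 1 passed the threshold, TGFBI, which fell in DMEM plus fatty acids. Over all tested genes 1.36% were called, 1.07% lower and 0.292% higher. At an unadjusted p under 0.05 there were 6 of the 10, against 17.7% of all tested genes, and the libraries of the media did not overlap in CPM for 3 of the 10, against 25.6%. The median log2 fold change was -0.50 over the 10 genes and 0.01 over all tested genes, with 7 of the 10 below 0. With the replicate block 2 of the 10 passed, TGFBI and SKIL, both lower, where 4.78% of all tested genes passed, 3.42% lower and 1.36% higher. The difference between media had the same sign at all 3 replicate numbers for 9 of the 10 genes, against 49.8% of all tested genes, and the exception was TGFB3.

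**Figure D1:**
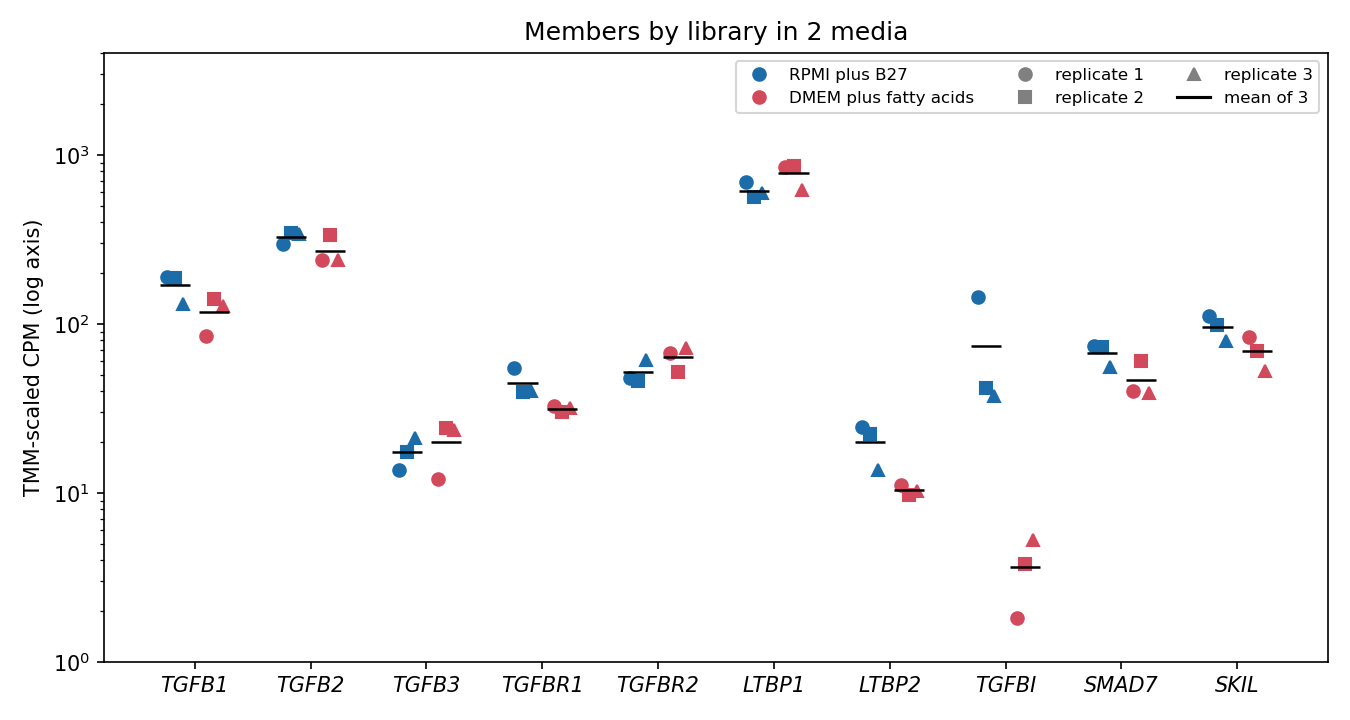
TMM-scaled CPM of the 10 genes on a log axis, 1 point per library (blue, RPMI plus B27; red, DMEM plus fatty acids; marker shape, replicate number) with a line at the mean of 3. TGFBI lies at 37.4 to 144 CPM in RPMI plus B27 and at 1.81 to 5.28 CPM in DMEM plus fatty acids, while the points of TGFB1, TGFB2, TGFB3, TGFBR2, LTBP1, SMAD7 and SKIL overlap between media.

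Levels of different genes can be compared only per length, and for this the CPM were divided by the length of the longest protein-coding transcript of each gene in GENCODE release 29. On this scale of CPM per kilobase (mean ± SD, n = 3) LTBP1 was highest in RPMI plus B27 at 96.9 ± 10.7. TGFB2 at 64.9 ± 5.55 and TGFB1 at 61.1 ± 11.9 came next and did not differ beyond their spread. Reads in the end of TGFB2 may not have been counted, as described below, so its value may be too low in both media. Its place beside TGFB1 and below LTBP1 holds for the counts as deposited. TGFBI followed at 26.5 ± 21.5, with a spread that reached past both neighbours below it, SMAD7 at 15.2 ± 2.37 and SKIL at 13.4 ± 2.18, and TGFBR2 stood at 11.2 ± 1.81. TGFB3 at 6.92 ± 1.48 and TGFBR1 at 6.89 ± 1.33 could not be ordered, and their order turned when the summed exon length of each gene was used. LTBP2 was lowest at 2.35 ± 0.67. In DMEM plus fatty acids LTBP1 was again highest, at 122.8 ± 21.5, ahead of TGFB2 at 53.5 ± 10.8 and TGFB1 at 42.3 ± 10.3, whose ranges overlapped. The middle of that order was TGFBR2 at 13.8 ± 2.26, SMAD7 at 10.5 ± 2.70, SKIL at 9.55 ± 2.15 and TGFB3 at 7.91 ± 2.69, and the ranges of the libraries overlapped from each gene to the next. TGFBR1 had 4.84 ± 0.19, and TGFBI at 1.29 ± 0.62 and LTBP2 at 1.21 ± 0.09 shared the lowest place. The place of TGFBI in RPMI plus B27 rested on replicate 1, with 51.3 CPM per kilobase. In replicates 2 and 3 TGFBI had 14.8 and 13.3 CPM per kilobase, beside 16.6 and 12.5 for SMAD7.

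None of the 3 ligand genes passed the test in either edgeR fit or by DESeq2, and TGFB1 alone had an unadjusted p under 0.05 (0.0473). TGFB1, the ligand best studied in fibrosis (chromosome 19, 41330323 to 41353922, minus strand; all coordinates are RefSeq's on GRCh38), had 189.6, 187 and 131 CPM in RPMI plus B27 replicates 1 to 3 and 85.1, 139.6 and 127 CPM in DMEM plus fatty acids. The highest values were in RPMI plus B27 and the lowest in DMEM plus fatty acids, and the groups overlapped. Its log2 fold change was -0.53 ± 0.22 (SE, adjusted p 0.275 by edgeR). TGFB2, the isoform whose knockout in mice gives severe heart defects (chromosome 1, 218345336 to 218444619, plus strand), had 296, 347 and 341 CPM in RPMI plus B27 and 238, 333 and 239 CPM in DMEM plus fatty acids. In DMEM plus fatty acids replicates 1 and 3 were below all libraries in RPMI plus B27 and replicate 2 was not, and the log2 fold change was -0.28 ± 0.17 (adjusted p 0.430 by edgeR). TGFB3 (chromosome 14, 75958097 to 75983011, minus strand) had the lowest ligand counts, with 13.7, 17.5 and 21.2 CPM against 12.1, 24.3 and 23.4 CPM. Its lowest library and its highest were both in DMEM plus fatty acids, and the log2 fold change was 0.19 ± 0.29 (adjusted p 0.773 by edgeR).

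The share of TGFB2 among the counts of the 3 ligands varied as much within a medium as between media. TGFB2 made up 59.3%, 62.9% and 69.1% of the ligand counts in RPMI plus B27 replicates 1 to 3 and 71.0%, 67.0% and 61.4% in DMEM plus fatty acids. The 95% Wilson intervals of single libraries were about 1 percentage point to either side (58.4% to 60.1% for RPMI plus B27 replicate 1), so the libraries of a medium differed by more than counting error. The mean TGFB2 share was 63.8% ± 4.99 against 66.5% ± 4.81 (SD, n = 3 each). The difference of 2.72 percentage points lay within that spread and was 0.46 to 5.40 points when 1 library was left out. TGFB3 made up 2.75%, 3.17% and 4.29% in RPMI plus B27 and 3.62%, 4.89% and 6.01% in DMEM plus fatty acids. Its share was higher in DMEM plus fatty acids at each replicate number, with overlap between media, and was not tested. In the RefSeq annotation the end of TGFB2 holds a separate non-coding gene, TGFB2-OT1, which was listed at 0 in all 6 libraries. Reads that overlap more than 1 listed gene were set aside in the deposited counts. The 0 of TGFB2-OT1 may come from this rule and sets no limit on its level, and TGFB2 may be undercounted. The antisense gene TGFB2-AS1, which overlaps the start of TGFB2, had 19 to 39 counts per library.

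The receptors TGFBR1 and TGFBR2 had fold changes of opposite sign, and neither passed. TGFBR1, the type I receptor kinase that phosphorylates SMAD2 and SMAD3 (chromosome 9, 99103647 to 99154192, plus strand), had 54.9, 39.6 and 40.2 CPM in RPMI plus B27 and 32.6, 30.1 and 31.9 CPM in DMEM plus fatty acids. Every library in RPMI plus B27 lay above every library in DMEM plus fatty acids, and the log2 fold change was -0.51 ± 0.16 (adjusted p 0.166 by edgeR, 0.0877 with the replicate block). TGFBR2, the type II receptor that binds ligand and activates the type I receptor (chromosome 3, 30606356 to 30694142, plus strand), had 48.0, 45.7 and 61.2 CPM against 67.4, 52.0 and 71.9 CPM. It was higher in DMEM plus fatty acids at each replicate number, by 0.18 to 0.49 in log2 CPM, while the groups overlapped, and the log2 fold change was 0.30 ± 0.17 (adjusted p 0.406 by edgeR). The difference in change between the receptors was not tested.

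LTBP1 and LTBP2 also had fold changes of opposite sign. LTBP1, which binds the latent TGF-beta complex covalently (chromosome 2, 32946953 to 33399509, plus strand), had 689.7, 559 and 593 CPM in RPMI plus B27 and 852, 860.4 and 620.2 CPM in DMEM plus fatty acids. For the counts as deposited, its CPM per kilobase was the highest of the 10 genes in every library. Its CPM in DMEM plus fatty acids replicate 3 lay within the range of RPMI plus B27 (log2 fold change 0.34 ± 0.17, adjusted p 0.360 by edgeR). LTBP2 (chromosome 14, 74498183 to 74612237, minus strand) does not bind latent TGF-beta and is known as a microfibril protein. It had 24.5, 22.3 and 13.6 CPM in RPMI plus B27 and 11.2, 9.70 and 10.3 CPM in DMEM plus fatty acids, with no overlap between media. Its log2 fold change of -0.96 ± 0.24 was the largest after that of TGFBI, with an adjusted p of 0.107 by edgeR (0.0611 with the replicate block), and 2 of its 12 alternatives called it, the DESeq2 Wald test (0.00844) and the fit without RPMI plus B27 replicate 3 (0.0469). As a share of the counts of both genes LTBP2 made up 3.43%, 3.83% and 2.24% in RPMI plus B27 and 1.29%, 1.11% and 1.63% in DMEM plus fatty acids, so that every library in RPMI plus B27 was above every library in DMEM plus fatty acids.

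TGFBI encodes a secreted matrix protein that binds integrins and collagens and was named for its induction by TGF-beta (chromosome 5, 136028988 to 136063818, plus strand). It had 143.7, 41.6 and 37.4 CPM in RPMI plus B27, from 3815, 978 and 1003 counts. In DMEM plus fatty acids it had 1.81, 3.78 and 5.28 CPM, from 42, 113 and 178 counts. The lowest library in RPMI plus B27 was still well above the highest in DMEM plus fatty acids, and RPMI plus B27 replicate 1 stood far above the other libraries of its medium. The mean was 74.2 ± 60.2 CPM against 3.62 ± 1.74 CPM (SD, n = 3 each), and the log2 fold change was -4.34 ± 0.66 (SE, adjusted p 0.0402 by edgeR; -4.04 ± 0.65 and 0.0298 with the replicate block). In log2 CPM the difference was -6.26, -3.44 and -2.81 at replicate numbers 1 to 3. The log2 fold change without RPMI plus B27 replicate 1 was -3.43 (adjusted p 0.0523). The call was also lost without RPMI plus B27 replicate 2 (0.0965) and without DMEM plus fatty acids replicates 1, 2 and 3 (0.0962, 0.124 and 0.0928), all with negative fold changes, and over its 12 alternatives the adjusted p ran from 6.17e-13 to 0.124.

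Like TGFBI, the summed fibroblast, smooth muscle and epicardial markers were lower in DMEM plus fatty acids. The summed endothelial markers were not, although 4 of the 5 tested had a negative log2 fold change (median -1.27). KDR alone had a positive one (1.26). Of 15 fibroblast and stromal markers 14 were tested, 7 passed and all 7 were lower in DMEM plus fatty acids (median log2 fold change -2.96). Over all tested genes 1.07% were called lower, and 3.42% with the replicate block. The 7 were COL1A1, COL3A1, DCN, FBN1, POSTN, LOX and MFAP5, which are all also on the pathway lists described further on. With the replicate block 10 were lower, and the added 3, LUM, PDGFRA and PDGFRB, are on no pathway list (-3.37, -1.18 and -3.16, adjusted p 0.0349, 0.0281 and 0.0269). The summed level of the list was 8494, 5418 and 4357 CPM in RPMI plus B27 and 762, 1962 and 1813 CPM in DMEM plus fatty acids. RPMI plus B27 replicate 1 was highest and DMEM plus fatty acids replicate 1 lowest, both for this sum and for TGFBI. Most of the sum in every library came from COL1A1, COL1A2 and COL3A1, which are also on the target list described further on. Their means were 1829, 1574 and 2137 CPM in RPMI plus B27 and 278, 699 and 448 CPM in DMEM plus fatty acids. FAP, the untested marker, was at 0 in all 3 libraries in DMEM plus fatty acids and at 0.60 CPM or less in RPMI plus B27. The 10 smooth muscle markers summed to 2361 to 2967 CPM against 857 to 1685 CPM, with 2 of 10 lower and called, LMOD1 (-1.62 ± 0.21) and CALD1 (-1.37 ± 0.23). With the block 4 passed, which added CNN1 and MYLK (-1.38 and -1.95, adjusted p 0.0399 and 0.0373). The 11 epicardial markers summed to 1360 to 1657 CPM (lowest in replicate 1, where TGFBI was highest) against 634 to 707 CPM. Of 8 tested genes 1 was lower and called, KRT8 (-1.10 ± 0.17). With the block 3 passed, which added TBX18 and KRT19 (-2.10 and -1.36, adjusted p 0.0271 and 0.0255). KRT8 alone gave 1065 to 1480 CPM of the sum in RPMI plus B27 and 538 to 662 CPM in DMEM plus fatty acids, while WT1, UPK3B and MSLN were under the filter at 0.87 CPM or less. When 1 library was left out, LMOD1 and KRT8 lost their call in all 6 fits and CALD1 in 5. The 10 endothelial markers summed to 64.1, 158 and 251 CPM in RPMI plus B27 and 120, 408 and 472 CPM in DMEM plus fatty acids. This sum was higher in DMEM plus fatty acids at each replicate number, with overlap between media. KDR gave most of it in DMEM plus fatty acids and in RPMI plus B27 replicates 2 and 3 (143 and 239 CPM). Of 5 tested endothelial markers edgeR called 0 (3 had an unadjusted p under 0.05, and DESeq2 called 3), and with the block KDR was higher (1.49, adjusted p 0.0245) and EMCN lower (-3.95, 0.0237). TEK (-2.13 ± 0.51, adjusted p 0.0960 by edgeR) and EGFL7 (-1.27 ± 0.41, 0.176) passed in neither edgeR fit. None of the 12 cardiomyocyte markers passed edgeR's test (3 had an unadjusted p under 0.05, and DESeq2 called 3), and 2 of them, ACTN2 and MYH7, were called lower with the replicate block (-1.05 and -1.32, adjusted p 0.0494 and 0.0359). MYH6 had a positive log2 fold change (0.86 ± 0.27, adjusted p 0.166 by edgeR and 0.0797 with the block), which DESeq2 called (0.0232). The part of these cell types in the change of TGFBI was not tested, and in bulk RNA fewer cells of a type and less RNA per cell cannot be told apart.

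**Figure D2:**
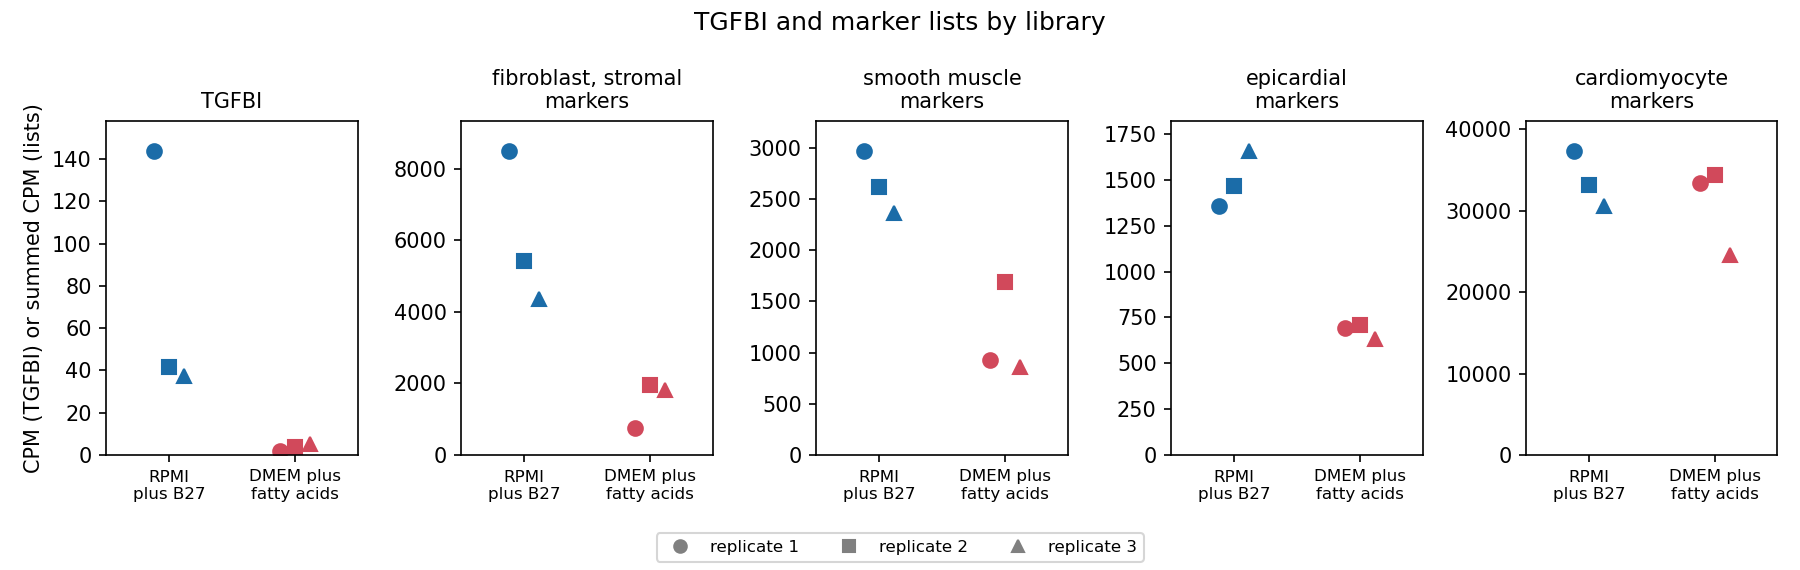
CPM of TGFBI and summed CPM of 4 marker lists in each library, on linear axes that start at 0 (blue, RPMI plus B27; red, DMEM plus fatty acids; marker shape, replicate number). TGFBI and the fibroblast, smooth muscle and epicardial sums do not overlap between media, and the cardiomyocyte sums of 24581 to 37325 CPM do.

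SMAD7 and SKIL are switched on by TGF-beta and dampen it. SMAD7 is an inhibitory SMAD that blocks the activated type I receptor (chromosome 18, 48919853 to 48950965, minus strand). It had 73.4, 73.3 and 55.2 CPM in RPMI plus B27 and 39.8, 60.2 and 39.2 CPM in DMEM plus fatty acids. Replicate 2 in DMEM plus fatty acids was above RPMI plus B27 replicate 3, so the groups overlapped, and the log2 fold change was -0.54 ± 0.21 (adjusted p 0.240 by edgeR, 0.0810 with the replicate block). SKIL encodes SnoN, a co-repressor that binds SMAD complexes in the nucleus (chromosome 3, 170357715 to 170396849, plus strand). It had 110.5, 98.2 and 79.5 CPM in RPMI plus B27 and 83.6, 69.5 and 52.7 CPM in DMEM plus fatty acids. Within each replicate number it was lower in DMEM plus fatty acids, by a difference in log2 CPM of -0.40, -0.50 and -0.59, although the groups overlapped. The log2 fold change was -0.49 ± 0.20 with an adjusted p of 0.261 by edgeR, and -0.50 ± 0.10 with 0.0472 when the replicate number was a block.

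**Figure D3:**
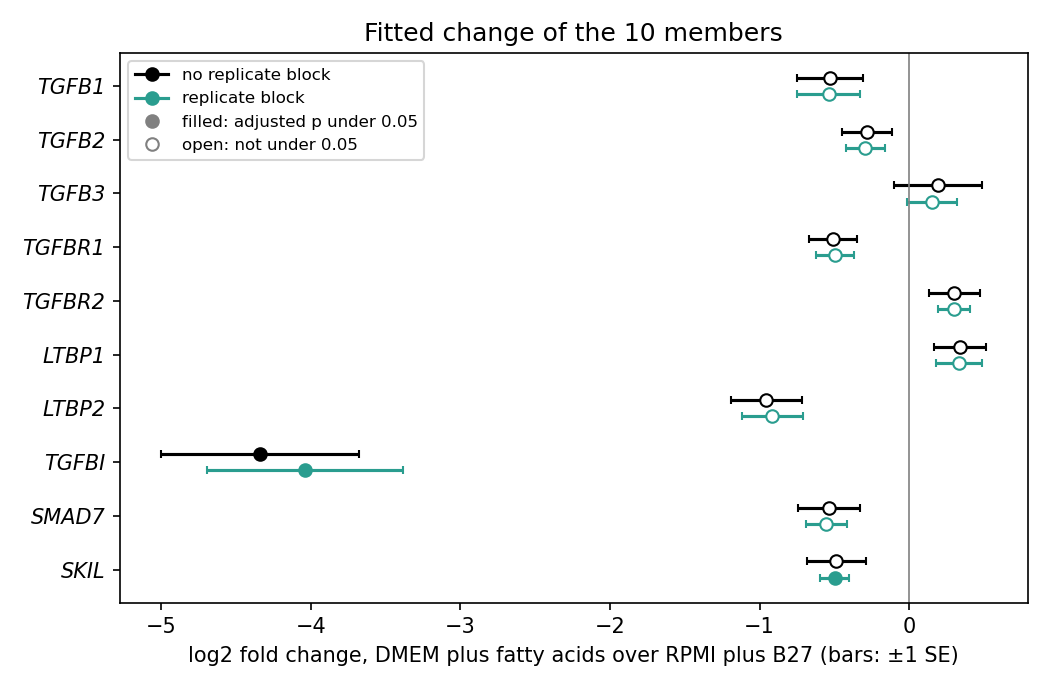
Fitted log2 fold change of each gene (positive, higher in DMEM plus fatty acids) with bars of 1 SE, from the fit without (black) and with (green) the replicate block. Filled points have an adjusted p under 0.05, which are TGFBI in both fits and SKIL with the block, and TGFBR2, LTBP1 and TGFB3 are the genes above 0.

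**Figure D4:**
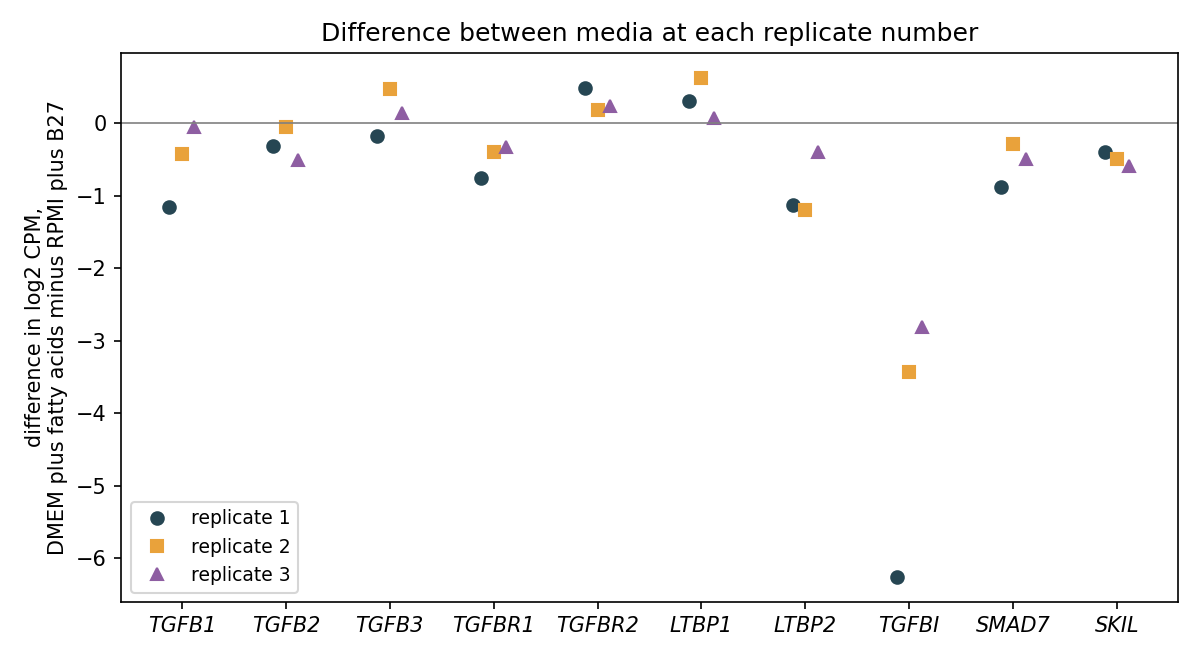
Difference in log2 CPM between the library in DMEM plus fatty acids and the library in RPMI plus B27 of the same replicate number, 1 point per number. TGFBI spans -6.26 to -2.81, SKIL spans -0.59 to -0.40, and TGFB3 is the gene with points on both sides of 0.

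The promoters of the called gene TGFBI and of the feedback genes are shown to set the target that changed beside the pathway's own inhibitors. Each is the 250 bases before a RefSeq start site on GRCh38.p14, read 5′ to 3′ on the gene's strand. Capitals mark the core of the SMAD-binding CAGA element, CAGAC, on either strand.
TGFBI promoter, chr5:136028738-136028987, plus strand: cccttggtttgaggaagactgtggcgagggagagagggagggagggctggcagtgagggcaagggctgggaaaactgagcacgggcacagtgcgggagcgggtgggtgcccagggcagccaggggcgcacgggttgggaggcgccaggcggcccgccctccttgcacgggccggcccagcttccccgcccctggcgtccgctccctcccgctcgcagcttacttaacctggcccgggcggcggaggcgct
SMAD7 promoter, chr18:48950966-48951215, minus strand: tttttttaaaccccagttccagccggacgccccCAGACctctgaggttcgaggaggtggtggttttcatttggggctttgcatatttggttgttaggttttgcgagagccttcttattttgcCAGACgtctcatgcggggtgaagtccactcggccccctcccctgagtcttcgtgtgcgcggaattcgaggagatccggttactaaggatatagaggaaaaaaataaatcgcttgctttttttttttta
SKIL promoter, chr3:170357465-170357714, plus strand: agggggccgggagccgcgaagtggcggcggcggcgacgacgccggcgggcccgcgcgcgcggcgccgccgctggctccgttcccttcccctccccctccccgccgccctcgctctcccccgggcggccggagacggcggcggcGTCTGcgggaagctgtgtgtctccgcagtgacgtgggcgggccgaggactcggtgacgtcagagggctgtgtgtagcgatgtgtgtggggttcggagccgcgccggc
The window of TGFBI held no CAGAC, that of SMAD7 held 2 matches, which begin 217 and 128 bases before the start, and that of SKIL held 1, which begins 107 bases before it. SMAD7 has 3 start sites in the table, and the window shown, at the 5′ end of the gene, held the most matches, with 1 and 0 in the others. RefSeq gave 23 start sites for the 10 genes, and 12 of these windows held CAGAC, against 38.0% of all 35116 windows of that length. Not all of the 23 were distinct. TGFBR1 gave more of them than any other gene, and some of its windows overlapped and shared a match. The SMAD palindrome GTCTAGAC, which does not contain CAGAC on either strand, and the AP-1 motif TGANTCA (both strands searched) were in none of the 23 windows, against 0.182% and 6.57% of all windows. TGFBI and SKIL were richer in G and C than SMAD7, with 72.8% and 78.4% against 48.0%. A match describes the letters of the window and is no measure of binding.

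The genes whose pattern over the 6 libraries was most like that of the 3 members with the smallest p were found by Pearson's r of log2 CPM among the 10028 genes whose mean reached 10 CPM, as a description. For TGFBI they were COL1A1 (collagen I alpha 1, r 0.998) and LIMA1 (an actin-binding LIM protein, 0.997). COL1A1 had 2914, 1323 and 1251 CPM in RPMI plus B27 and 212, 289 and 334 CPM in DMEM plus fatty acids. LTBP2 was most like VASH1 (0.988) and RNF217 (0.987), and TGFBR1 was most like INPP5F (0.997) and YEATS2 (0.996). Such values of r rest on 6 libraries in 2 media and share the difference between the media. VASH1 and INPP5F were called lower with the replicate block and not without it. Their adjusted p values by edgeR were 0.0272 and 0.0460 with the block, and 0.0600 and 0.0957 without it.

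Among the other ligands of the family 3 of 16 tested genes passed, 2 lower and 1 higher in DMEM plus fatty acids, beside 1.36% of all tested genes. LEFTY2, an antagonist of nodal signalling, had 152, 149 and 107 CPM in RPMI plus B27 and 10.2, 21.6 and 30.2 CPM in DMEM plus fatty acids (-2.71 ± 0.38, adjusted p 0.0338 by edgeR). GDF6, a bone morphogenetic protein (BMP) type ligand, had 119, 162 and 113 CPM against 12.2, 40.0 and 18.3 CPM (-2.48 ± 0.42, adjusted p 0.0453). Both fell to levels with no overlap between media. INHBE, the inhibin beta E subunit, rose from 1.28, 1.32 and 0.52 CPM to 32.3, 7.49 and 8.36 CPM (3.94 ± 0.70, adjusted p 0.0493). Its call was lost in all 6 fits without 1 library, and without DMEM plus fatty acids replicate 1 the log2 fold change was 2.92. Of the 6 fits without 1 library, GDF6 kept its call in 1, without DMEM plus fatty acids replicate 2 (-3.10, adjusted p 0.0254 by edgeR). LEFTY2 kept its call in 2 of them. BMP6 had 9.61, 4.98 and 2.87 CPM against 0.22, 0.37 and 0 CPM and was called with the replicate block (-4.91 ± 0.89, adjusted p 0.0525 by edgeR and 0.0186 with the block). With the block 6 of the 16 passed, 5 lower and 1 higher. The median of the 16 was -0.39. The other 10 ligands on the list were under the filter, with at most 80 counts in any library.

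None of the 14 tested receptors and co-receptors passed, with or without the replicate block, and their median was 0.04. The smallest p were those of ENG (endoglin, a co-receptor; -1.84 ± 0.44, adjusted p 0.0967 by edgeR), ACVR2A (an activin type II receptor; 0.58 ± 0.15, 0.110), ACVR1C (1.02 ± 0.35, 0.192) and AMHR2 (0.73 ± 0.25, 0.193). At an unadjusted p under 0.05 there were 4 of the 14, beside 17.7% of all tested genes, and DESeq2 called 2. The 7 SMAD transducer genes likewise had no call in either fit, and their median was 0.09. SMAD2 had 104, 122 and 86.3 CPM in RPMI plus B27 and 148, 159 and 140.3 CPM in DMEM plus fatty acids, without overlap, and its log2 fold change was 0.52 ± 0.15 (adjusted p 0.141 by edgeR, 0.0518 with the block). SMAD1 (0.43 ± 0.17), SMAD3 (-0.25 ± 0.13) and SMAD5 (-0.11 ± 0.10) did not pass. Of the 7 genes 2 had an unadjusted p under 0.05, beside the same 17.7%, and DESeq2 called 0.

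The other latency and activation genes, among them matrix, protease and integrin genes, had a negative fold change in 21 of 23 tested cases. Their median was -0.61, beside 0.01 over all tested genes. Of these 23 genes 3 passed, all lower, and 6 with the replicate block, all lower. Over all tested genes 1.07% were called lower, and 3.42% with the block. MMP2, a gelatinase, fell from 99.7 ± 26.3 to 23.7 ± 8.04 CPM (SD, n = 3 each; -2.07 ± 0.30, adjusted p 0.0351 by edgeR). FBN1 (fibrillin 1, the microfibril protein that latent binding proteins attach to) had 317, 139.6 and 87.6 CPM against 12.4, 25.1 and 19.5 CPM (-3.25 ± 0.51, adjusted p 0.0402). MFAP5, a microfibril-associated protein, fell from 4.31 ± 0.98 to 0.54 ± 0.37 CPM (SD, n = 3 each; -2.97 ± 0.52, adjusted p 0.0486). Without RPMI plus B27 replicate 1 the log2 fold change of FBN1 was -2.58 (adjusted p 0.0543). Fibronectin, FN1, passed with the block and not without it (-2.57 ± 0.47, adjusted p 0.0540 and 0.0486 with the block). FBN1 and MFAP5 are also on the list of fibroblast markers, whose sums moved with them as given above.

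Among 15 other feedback and inhibitor genes 1 passed in either fit, PMEPA1, a transmembrane inhibitor of SMAD signalling that TGF-beta induces. It had 39.0, 40.8 and 27.8 CPM in RPMI plus B27 and 8.96, 14.2 and 10.6 CPM in DMEM plus fatty acids, with no overlap (-1.67 ± 0.23, adjusted p 0.0338 by edgeR). CTDSPL, a SMAD phosphatase (-0.40 ± 0.12, adjusted p 0.160), SMURF2, a ubiquitin ligase that works with SMAD7 (-0.33 ± 0.11, 0.190), and BAMBI, a pseudoreceptor (-0.38 ± 0.16, 0.287), did not pass. The median of the 15 genes was -0.22, and 3 of them had an unadjusted p under 0.05, a share near the 17.7% of all tested genes.

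Of 30 other target genes, 8 passed and all 8 were lower, beside 1.07% of all tested genes called lower. With the replicate block 11 were called lower and none higher, beside 3.42% and 1.36% of all tested genes. The median of the 30 was -1.31. This list, like the others, was chosen with earlier results of these data known. CDKN2B, a CDK inhibitor induced by TGF-beta in many cells, had 65.2, 78.5 and 69.2 CPM in RPMI plus B27 and 4.00, 9.80 and 5.81 CPM in DMEM plus fatty acids (-3.43 ± 0.32, adjusted p 0.0164 by edgeR). The 5 next smallest p were those of the matrix genes COL1A1 (-2.72 ± 0.38), BGN (biglycan, -5.66 ± 0.94), LOX (a collagen cross-linking oxidase, -3.72 ± 0.62), POSTN (periostin, -2.95 ± 0.50) and COL3A1 (-2.25 ± 0.38), with adjusted p values of 0.0338 to 0.0452. Without RPMI plus B27 replicate 1 the log2 fold changes of BGN, LOX and POSTN were -4.56, -3.04 and -2.24 (adjusted p 0.0734, 0.0838 and 0.0543), and that of BGN without DMEM plus fatty acids replicate 2 was -6.30 (0.118). Of the 30 genes 5 are also fibroblast markers here and 2 smooth muscle markers, and among the other 23 there were 4 calls, all lower, with a median of -0.72. CCN2, a matricellular protein gene and classical TGF-beta target named here after its values were seen, had 759.7, 545 and 401 CPM in RPMI plus B27 and 50.2, 140.4 and 21.0 CPM in DMEM plus fatty acids. Its groups did not overlap, and it passed with the block and not without it (-3.01 ± 0.66, adjusted p 0.0808 by edgeR and 0.0237 with the block).

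Extracellular antagonists had 1 call among 11 tested genes, and all 11 had a negative fold change with a median of -0.64. Over all tested genes 1.36% were called, and 4.78% with the replicate block. DCN, the proteoglycan decorin, which binds TGF-beta and is also on the fibroblast list, fell from 37.9, 22.2 and 11.6 CPM to 0, 0.60 and 0.59 CPM (-5.81 ± 0.81, adjusted p 0.0338 by edgeR). With the block 3 passed, which added FSTL3, which binds activins, and GREM1, a BMP antagonist (-1.70 ± 0.33, adjusted p 0.0605 and 0.0219 with the block, and -4.93 ± 0.97, 0.0632 and 0.0131). FSTL1 had -0.93 ± 0.24 with an adjusted p of 0.112. Over all these lists 16 pathway genes were called. Without 1 library 0 to 11 of the 16 kept their call (2, 0 and 11 without RPMI plus B27 replicates 1, 2 and 3, and 2, 2 and 0 without DMEM plus fatty acids replicates 1, 2 and 3), and all 16 kept their direction in each of these fits.

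**Figure D5:**
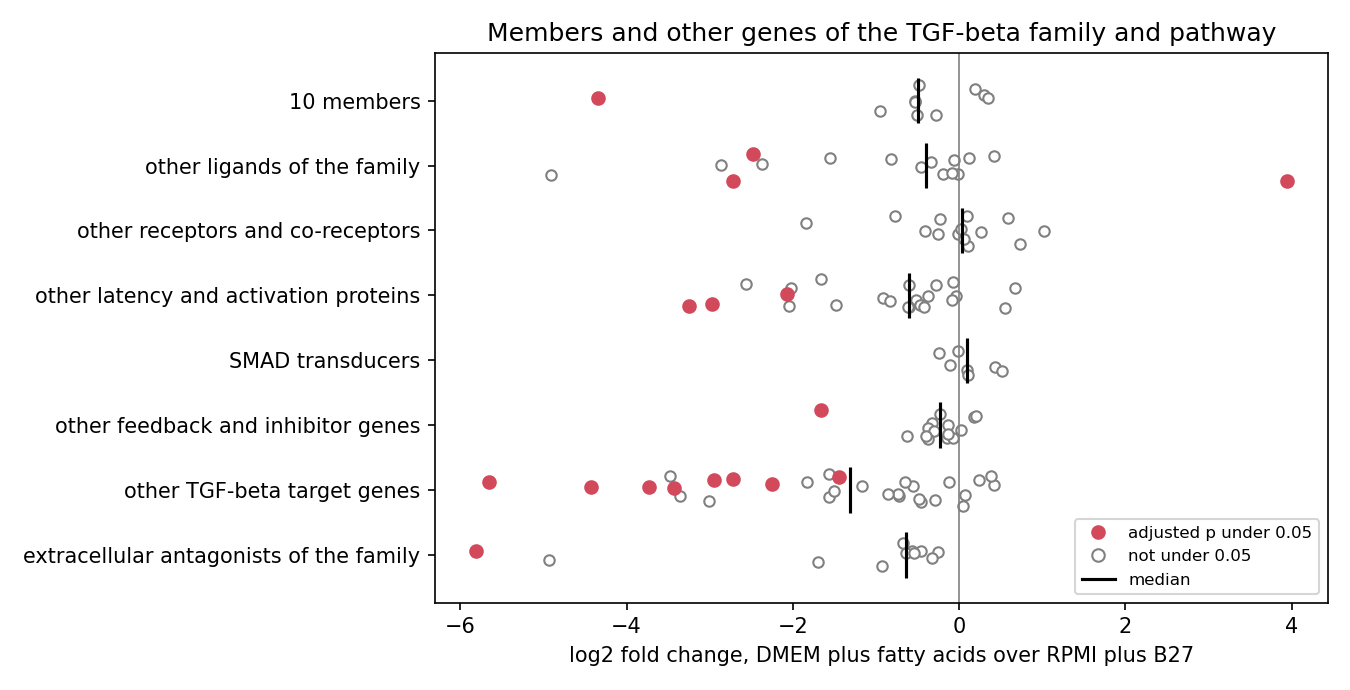
Log2 fold change of each tested gene, 1 point per gene, for the 10 members and 7 lists of other genes of the family and pathway, with a line at the median (red, adjusted p under 0.05; open, not under it). Called genes are on the lower side in each list that has any, apart from INHBE at 3.94, and the medians of receptors (0.04) and SMAD transducers (0.09) are near 0.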

How the data were processed

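Libraries came from a stranded mRNA kit, and STAR, HTSeq and hg38 are named without versions in the submitters' processing notes. Each library's deposited file lists unnormalized whole-number counts by gene symbol; annotation and strand setting are not given in the sources used here. Summary rows (reads in no gene, 5.44% to 7.57% per library; in more than 1 gene, 3.90% to 4.15%; aligned to more than 1 place, 3.05% to 4.10%) were left out.

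Groups and replicate numbers came from the titles. Counts were tested with edgeR 4.0.16 (R 4.3.3; filterByExpr at its defaults, TMM, quasi-likelihood test, Benjamini-Hochberg), checked on simulated data; DESeq2 1.42.0 was an alternative. Log2 CPM used a prior count of 2. No 2 libraries of 1 medium agreed within sampling noise (chi-square per degree of freedom at least 29.4). Same-numbered libraries correlated at 0.31, 0.43 and 0.37 in their deviations from the medium mean, others at -0.24 to -0.14. Deviations within a medium cancel, so the negative values follow from the positive ones and are no separate evidence. From the positive values the numbers were taken as pairing the libraries, and what they share is not stated. Intervals cover counting error only.

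Named genes were all 10 members, the 4 smallest p of each pathway list (up to 6 where called), genes most alike and, from the marker lists, the 3 smallest p of each and markers at 0. COL1A2, CCN2, LUM, PDGFRA, PDGFRB, MYLK, KDR, WT1 and UPK3B were named after their values were seen. Members and lists were chosen with earlier results of these data known.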

Additional observations from a re-analysis of the deposited data

How the results depend on the processing

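The number of genes called over all tested genes was 219, and moved to 770 with the replicate block, 539 with no filter on low counts, 119 under a minimum of 10 counts in all libraries, 1232 by the DESeq2 Wald test and 3 to 131 when 1 library was left out. Of the 10 members 1 was called, 2 with the replicate block (TGFBI and SKIL), 2 by the DESeq2 Wald test (TGFBI and LTBP2) and 0 to 2 when 1 library was left out. The 2 without RPMI plus B27 replicate 3 were TGFBI and LTBP2, and the other 5 such fits called none of the 10. RLE scaling, scaling by total counts and either filter left TGFBI the one member called. Scaling by total counts moved the median of all genes from 0.01 to 0.12 and gave 74 higher and 128 lower genes in place of 47 and 172. Over 120 alternative values of the members 112 kept their side of the threshold, 5 lost and 3 gained a call, and none changed sign. Of the 16 called pathway genes 12 kept their call under scaling by total counts and 6 of the 14 still tested under the minimum of 10 counts. No other call of a named member changed with the replicate block. BMP6, FN1, FSTL3, GREM1 and CCN2, which passed with the replicate block, also passed with no filter on low counts and by DESeq2. A missed threshold with 3 libraries per medium does not show that levels were equal.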
